A study of Mus musculus with 12 samples.

Results

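The comparison described here sets unstimulated naive CD4 T cells of PP2Ac transgenic mice against unstimulated naive CD4 T cells of WT mice, before any contact with activating antibody. It was defined by the array titles and uses 4 of the 12 arrays of the series, 2 transgenic and 2 WT, all at 0 h. Of the 28853 probe sets on the array, the 23410 with at least 1 gene symbol were analysed. All mice were C57BL/6, and the transgene encodes PP2Ac, which is the catalytic part of the enzyme PP2A (protein phosphatase 2A). The promoter that drives the transgene and the number of mice behind an array are not given in the sources used here, and the source label of the WT arrays contains the word transgenic. The other 8 arrays hold the same genotypes after 6 h or 24 h with soluble anti-CD3 (0.25 ug/mL) and anti-CD28 (0.5 ug/mL) on plates coated with goat antibody against hamster immunoglobulin, and serve here for the estimate of spread and for the later differences of genes described at 0 h. In each pair, 1 title carries the mark Rep. Nothing states that the pairs are separate mice or cultures, so the p-values measure only the spread between these samples, which may be technical, and 2 arrays a group limit the precision.

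PP2A removes phosphate from serine and threonine residues and is among the most abundant phosphatases of T cells. Its core is a dimer of a scaffold (A) subunit and a catalytic (C) subunit, and interchangeable B subunits direct this core to its substrates. Methylation of the C subunit tail, assembly chaperones and inhibitor proteins set how much active enzyme is formed. In T cells PP2A is known for acting on kinases and transcription factors downstream of the T cell receptor, and raised PP2Ac has been described in T cells from patients with lupus.

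Values are log2 expression per probe set, and every difference is transgenic minus WT on that scale, given with its standard error from the fit. Levels of a gene are compared between arrays, and no gene is ranked against another by level. The median or lower quartile of an array serves only to place a reading as bright or dim. A difference was called at a Benjamini-Hochberg adjusted p under 0.05 in a limma fit of all 12 arrays. With 2 arrays against 2, an exact permutation test of a single gene cannot go below p = 0.333 (two-sided), so no such test was used.

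The cells carried the marks of their label in both genotypes. Cd4, the co-receptor, read 13.73 and 13.75 in transgenic cells, against 13.73 and 13.74 in WT cells. Cd3e, a signalling chain of the T cell receptor complex, read 13.90 and 13.84 in transgenic cells, against 13.86 and 13.84 in WT cells. Ccr7, the homing receptor of naive cells, read 14.16 and 14.22 in transgenic cells, against 14.12 and 14.17 in WT cells. These readings lie far above the median probe set of an array (7.45). Cd8a, the co-receptor of the other T cell lineage, read 8.50 and 7.72 in transgenic cells, against 7.89 and 7.82 in WT cells. Transcripts of other blood cells were also present, and the WT array marked Rep stood apart through them. S100a8, a neutrophil granule protein gene, read 12.86 and 12.02 in transgenic cells, against 12.84 in the unmarked and 9.03 in the Rep WT array. The mean level of 28 neutrophil markers was 10.46 and 9.73 in transgenic cells, against 10.68 in the unmarked and 7.89 in the Rep WT array. The WT arrays differed from each other by a root mean square of 0.304 over probe sets, more than the unmarked arrays of the different genotypes did (0.203) and more than those marked Rep did (0.243). In these bulk samples, fewer cells of a type and less RNA per cell cannot be told apart.

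Nova1 was the gene that rose past the threshold before stimulation. Nova1 encodes an RNA-binding splicing regulator known mainly from neurons, and both of its probe sets were higher in transgenic cells. Probe set 10400155 read 11.32 and 11.24 in transgenic cells, against 5.25 and 5.68 in WT cells. Probe set 10400157 read 11.71 and 11.56 in transgenic cells, against 6.33 and 5.88 in WT cells. The WT readings of 10400155 lie below the lower quartile of each array (5.81) and those of 10400157 just above it, whereas all transgenic readings lie in the upper part of the arrays. The differences were 5.81 ± 0.17 (limma adjusted p = 1.5e-06) and 5.53 ± 0.24 (limma adjusted p = 3.0e-05). Within the unmarked arrays they were 6.07 and 5.38, and within those marked Rep 5.56 and 5.67. Whether the low WT readings understate these differences was not tested. These were the 2 probe sets called higher of 23410 (0.00854%), and 0 were called lower (0.0%). At an unadjusted p under 0.05 there were 834 probe sets (3.56%), of which 336 were higher (1.44%) and 498 lower (2.13%).

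Ppp2ca, which encodes the C alpha subunit and hence the product of the transgene, had the smallest p after Nova1. Its probe set 10375926 read 13.90 and 13.88 in transgenic cells, against 13.15 and 13.15 in WT cells. The groups did not overlap, and the arrays within each genotype were close together. The difference was 0.74 ± 0.08, a 1.67-fold higher level, with 0.75 within the unmarked arrays and 0.72 within those marked Rep. It missed the threshold (limma adjusted p = 0.055) and passed it with the mark Rep as a block (limma adjusted p = 0.035). The deposited values do not separate transcripts of the transgene from those of the endogenous gene, and Ppp2ca was already among the brighter probe sets in WT cells.

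The genome neighbours of Nova1 and Ppp2ca did not pass the threshold. In the reference gene table (GRCm38.p6), Ppp2ca spans chr11:52098824-52122749 and Nova1 spans chr12:46697895-46819480. The 10 measured genes flanking Nova1 were taken by order on the chromosome, 5 on either side, without regard to distance. Of them 0 passed the threshold, and their differences ran from -0.16 in Stxbp6, a syntaxin-binding protein gene, to 0.23 in Gm2027. Prkd1, a protein kinase gene that follows Nova1 in that order, differed by -0.04 ± 0.09, and Dnajb9, which encodes an endoplasmic reticulum co-chaperone, by 0.17 ± 0.22. Of the 10 measured genes flanking Ppp2ca in the same way, 0 passed, and the differences ran from -0.19 in Cdkn2aipnl to 0.19 in Skp1, a component of SCF ubiquitin ligases. The unadjusted p under 0.05 was met by 0 of these 20 genes, the smallest being 0.066 for Cdkn2aipnl. That rule was met by 3.62% of all genes, so a count of 0 among 20 does not set them apart. Prkd1, Gm2027 and Nrcam, flanking Nova1, and Olfr1372-ps1, flanking Ppp2ca, had mean readings below the lower quartile of each array (5.81) in both genotypes. A change in such dim readings may not be visible. Nova2, the paralog of Nova1 on another chromosome, read 7.69 and 7.66 in transgenic cells, against 8.07 and 7.78 in WT cells (-0.25 ± 0.13, not called). Among 18 measured genes of neuronal RNA-binding proteins and neurons, Nova1 was the member called, and the median was 0.02, against -0.02 over all 19938 genes with 1 probe set each.

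**Figure D1:**
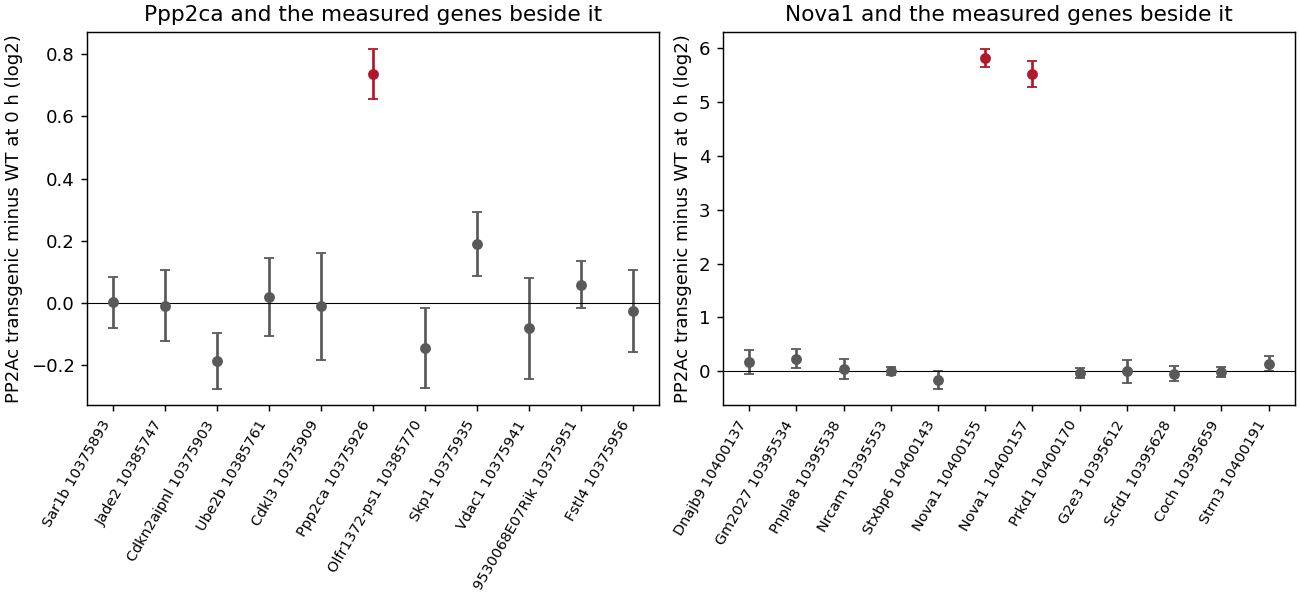
Difference in log2 expression, transgenic minus WT at 0 h, for Ppp2ca (left) and Nova1 (right) with the 5 measured genes on either side in genome order; points are estimates, bars are 1 standard error of the fit, and the vertical scales differ. Ppp2ca stands at 0.74 among neighbours from -0.19 to 0.19, and both Nova1 probe sets stand above 5 among neighbours from -0.16 to 0.23.

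The partners of the catalytic subunit did not follow Ppp2ca. Ppp2cb, which encodes the C beta subunit, read 12.23 and 12.37 in transgenic cells, against 12.32 and 12.36 in WT cells (-0.04 ± 0.09). Ppp2r1a and Ppp2r1b, the scaffold genes, differed by -0.02 ± 0.08 and -0.01 ± 0.11. The groups overlapped for all 3. Of 14 measured B subunit genes, 0 passed the threshold and 0 had an unadjusted p under 0.05 in limma (3.62% of all genes did), with a median difference of -0.02. The B subunit genes ran from -0.16 in Ppp2r2c to 0.14 in Strn3, a striatin, and included Ppp2r2a (0.13 ± 0.08) and Strn4 (-0.12 ± 0.07). Among 13 catalytic subunits of other serine/threonine phosphatases, 0 passed and the median was -0.03. Both transgenic arrays lay above both WT arrays for 5 of the 13 (38.5%, against 12.2% of all genes) and below them for 3 (23.1%, against 20.7%). Ppp1cb, a catalytic subunit of protein phosphatase 1, differed by 0.16 ± 0.08.

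Among 15 genes of PP2A biogenesis, methylation and inhibition, 0 passed and the median was -0.03. Mid1 stood lowest among them. It encodes a ubiquitin ligase that marks the PP2A catalytic subunit for degradation through the adaptor alpha4, the product of Igbp1. Mid1 (10603208) read 9.68 and 9.94 in transgenic cells, against 10.22 and 10.47 in WT cells. The groups did not overlap, and the difference was nearly the same within the unmarked arrays (-0.55) and within those marked Rep (-0.53). It came to -0.54 ± 0.11 (limma adjusted p = 1). Igbp1 differed by -0.12 ± 0.09, and Set, which encodes a PP2A inhibitor, by -0.24 ± 0.17 in the probe set used in the list and 0.06 ± 0.10 in another. Lcmt1, the methyltransferase of the C subunit, and Ppme1, the methylesterase that opposes it, differed by -0.12 ± 0.09 and -0.03 ± 0.10. Ptpa, an activator of PP2A assembly, differed by -0.06 ± 0.10.

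Over all probe sets, those of Nova1 and Ppp2ca included, the genotype differences correlated weakly between the marks. The differences within the unmarked arrays and within those marked Rep correlated with r = 0.16 across probe sets, as a description, since probe sets of an array are not independent. Their spread was 0.19 (SD) within the unmarked arrays and 0.247 within those marked Rep. Both transgenic arrays lay above both WT arrays for 12.8% of probe sets and below them for 20.5%. The mean difference was above 0 for 43.8%. The difference was positive within both marks for 22.3% of probe sets, negative within both for 32.8%, and of opposite sign or 0 for 44.9%. Differences of over 0.5 within both marks were met by 61 probe sets on the higher side (0.261%) and 6 on the lower side (0.0256%). Those of over 1 within both marks were met by 9 on the higher side (0.0384%) and 0 on the lower side (0.0%). The 9 were both Nova1 probe sets, Ighg3, Slc4a1, Apol7c, Clec4n, Ifi207, Cd36 and Rsad2.

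**Figure D2:**
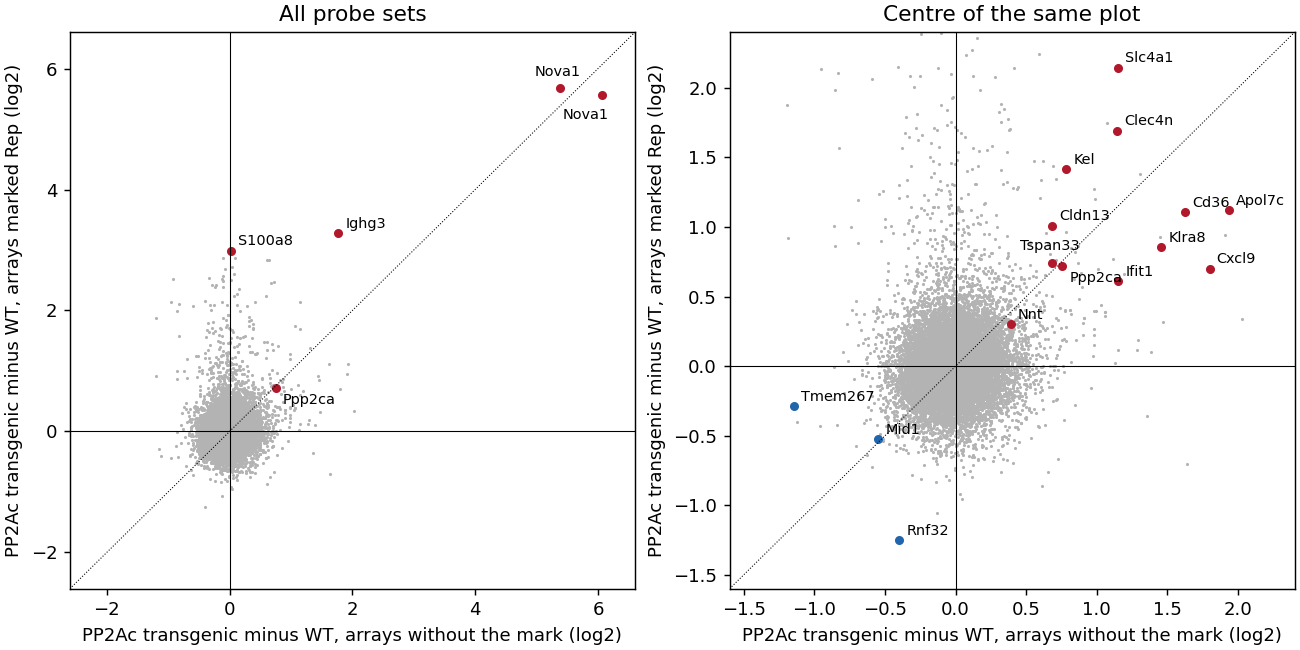
Log2 difference, transgenic minus WT at 0 h, within the arrays without the mark (horizontal) and within those marked Rep (vertical), for all probe sets (left) and for the centre of the same plot (right); grey points are probe sets, coloured points are genes named in the text, red for positive and blue for negative mean differences. Nova1 lies far along the diagonal and Ppp2ca and Mid1 lie on it, while S100a8 lies on the vertical axis, with a difference in the arrays marked Rep alone.

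After Nova1, the 10 largest positive differences without overlap were those of Ighg3, Slc4a1, Apol7c, Clec4n, Ifi207, Cd36, Cxcl9, Fscn1, Klra8 and Slc7a11. None of them passed the threshold (limma adjusted p = 1 for each of the 10). Ighg3, the constant region of the IgG3 heavy chain, read 11.63 and 11.39 in transgenic cells, against 9.86 and 8.11 in WT cells (2.52 ± 0.68). Slc4a1, the anion exchanger of the red cell membrane, read 10.61 and 10.17 in transgenic cells, against 9.47 and 8.03 in WT cells (1.65 ± 0.39). In both genes the lowest reading was that of the WT array marked Rep, the array with the low neutrophil markers, and the unmarked arrays alone still differed by 1.77 and 1.15.

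Apol7c, an apolipoprotein L family gene, read 9.55 and 9.93 in transgenic cells, against 7.61 and 8.81 in WT cells (1.53 ± 0.67). Cxcl9, a chemokine induced by interferon gamma, read 8.72 and 9.02 in transgenic cells, against 6.92 and 8.32 in WT cells (1.25 ± 0.49). Klra8, an activating receptor of natural killer cells, read 7.95 and 8.07 in transgenic cells, against 6.49 and 7.21 in WT cells (1.16 ± 0.34). In these 3 genes, and in Fscn1, the unmarked WT array was the lowest. Fscn1, which encodes an actin-bundling protein of mature dendritic cells, read 10.25 and 10.96 in transgenic cells, against 8.80 and 10.03 in WT cells (1.19 ± 0.64).

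Clec4n, a myeloid receptor for fungal sugars, read 9.39 and 8.45 in transgenic cells, against 8.24 and 6.76 in WT cells (1.42 ± 0.98). Ifi207, a member of the interferon-inducible p200 family, read 10.74 and 10.31 in transgenic cells, against 9.67 and 8.56 in WT cells (1.41 ± 0.67). Cd36, a scavenger receptor, read 9.15 and 8.25 in transgenic cells, against 7.52 and 7.14 in WT cells (1.37 ± 0.64). Slc7a11, the cystine and glutamate exchanger, read 9.81 and 8.99 in transgenic cells, against 8.83 and 7.71 in WT cells (1.13 ± 0.57). For these 4 the unmarked array was the higher in each genotype. Ighg3, Klra8 and Apol7c belong to families of near-identical copies, and reads of their probe sets by other copies were not tested.

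**Figure D3:**
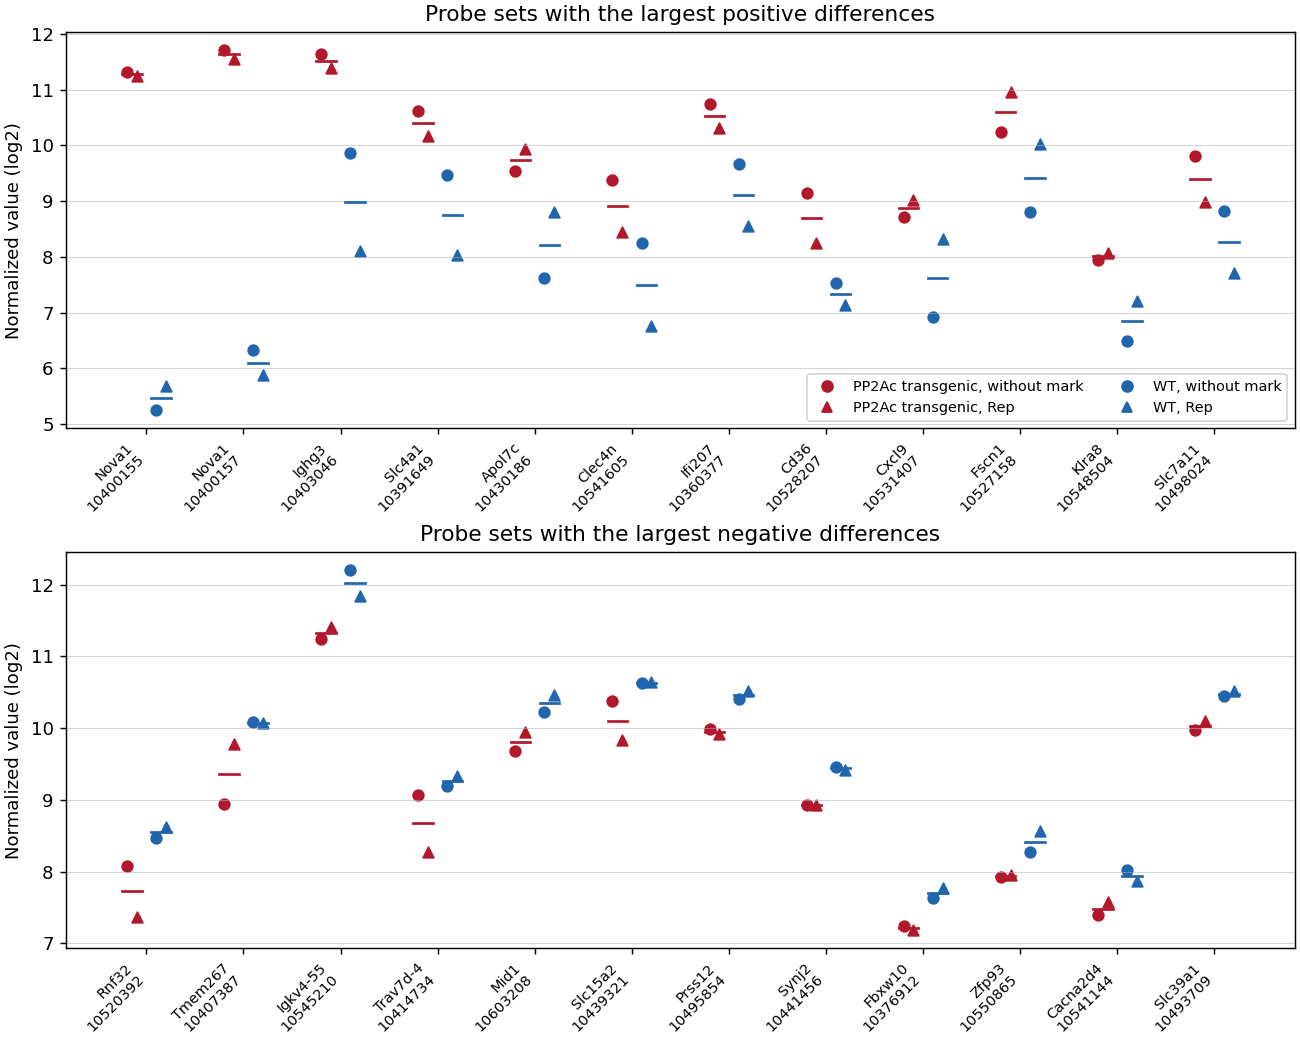
Normalised log2 value in each of the 4 arrays at 0 h for the 12 probe sets with the largest positive (top) and negative (bottom) differences among those without overlap between the genotypes; red is transgenic and blue WT, circles are arrays without the mark, triangles arrays marked Rep, and bars are means of 2 arrays. The Nova1 gap is over 5 log2 units, whereas most other WT pairs in the top panel are themselves clearly apart.

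The largest negative differences were smaller, and none passed (limma adjusted p = 1 for each of the 12). Rnf32, a RING finger gene, read 8.08 and 7.37 in transgenic cells, against 8.47 and 8.63 in WT cells (-0.83 ± 0.33). Tmem267, a transmembrane protein gene, read 8.94 and 9.78 in transgenic cells, against 10.08 and 10.07 in WT cells (-0.72 ± 0.33). In both, the WT arrays were close and the transgenic arrays were far apart. Synj2, an inositol phosphatase gene, was close within each genotype, at 8.92 and 8.93 in transgenic cells, against 9.46 and 9.42 in WT cells (-0.51 ± 0.18). Prss12, a secreted serine protease gene, read 9.99 and 9.91 in transgenic cells, against 10.41 and 10.52 in WT cells (-0.52 ± 0.23). Slc39a1, a zinc importer gene, read 9.97 and 10.10 in transgenic cells, against 10.44 and 10.52 in WT cells (-0.45 ± 0.12). The rest were Igkv4-55 and Trav7d-4, variable segments of immunoglobulin kappa and of the T cell receptor alpha chain with near-identical copies (-0.70 ± 0.30 and -0.59 ± 0.22), Mid1, the peptide transporter gene Slc15a2, the F-box gene Fbxw10 (-0.49 ± 0.09), the zinc finger gene Zfp93 (-0.48 ± 0.11) and Cacna2d4, a calcium channel subunit gene (-0.46 ± 0.17). Slc15a2 read 10.38 and 9.83 in transgenic cells, against 10.63 and 10.64 in WT cells (-0.53 ± 0.23), and it differed by -0.25 without the transgenic array marked Rep and -0.81 without the unmarked one. Trav7d-4 read 9.07 and 8.27 in transgenic cells, against 9.20 and 9.33 in WT cells, and it differed by -0.20 without the transgenic array marked Rep and -0.99 without the unmarked one. Just outside the 12 on either side stood Thbs1 (1.08), the matrix protein thrombospondin, and Ly6k (-0.44).

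Most red cell genes read slightly higher in transgenic cells. The list of 46 erythroid markers had 35 with a probe set of their own, of which 26 were positive (43.0% of all genes were) and 18 had both transgenic arrays above both WT arrays (51.4%). Over all genes that separation was met by 12.2%. The list median was 0.20, against -0.02 over all genes, and 11 members had an unadjusted p under 0.05 on the higher side, a rule that 1.42% of all genes met. No member passed the threshold, which was met by 0.00502% of all genes. The haemoglobin genes were not analysed here. The median was 0.16 within the unmarked arrays and 0.46 within those marked Rep, and 0.09 without the WT array marked Rep. The mean level of the 35 was 8.09 and 7.96 in transgenic cells, against 7.91 in the unmarked and 7.52 in the Rep WT array, so the WT array marked Rep was low here as it was for neutrophil markers.

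The members with the smallest p were Cldn13, Tspan33, Kel, Slc4a1, Sptb and Alas2. Kel, the gene of the Kell antigen, read 6.91 and 6.84 in transgenic cells, against 6.13 and 5.42 in WT cells (1.10 ± 0.20). Cldn13, a claudin gene expressed in mouse erythroid cells, read 6.29 and 6.36 in transgenic cells, against 5.61 and 5.35 in WT cells (0.85 ± 0.11, limma adjusted p = 0.15). Both WT readings of Cldn13 and the Rep WT reading of Kel are dim, below the lower quartile of each array (5.81). Tspan33, a tetraspanin gene of erythroid progenitors and B cells, read 7.73 and 7.99 in transgenic cells, against 7.05 and 7.25 in WT cells. Its difference was 0.71 ± 0.13 (limma adjusted p = 1, and 0.045 with the mark Rep as a block), and it was 0.68 within the unmarked arrays and 0.74 within those marked Rep. Alas2, the first enzyme of erythroid haem synthesis, read 7.70 and 7.91 in transgenic cells, against 7.34 and 6.59 in WT cells (0.84 ± 0.23). Fech, the last enzyme of the same pathway, differed by 0.05 ± 0.08. Sptb, the erythroid beta spectrin, read 8.22 and 8.17 in transgenic cells, against 7.93 and 7.71 in WT cells (0.37 ± 0.09). The transcription factor genes of the lineage differed by less. Gata1 differed by -0.07 ± 0.12, Tal1 by -0.06 ± 0.12 and Gfi1b by 0.20 ± 0.23, with overlap, and Klf1 by 0.12 ± 0.16, without overlap.

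The promoters of 4 of these members are shown because erythroid genes are known for binding GATA factors. They are the first 4 in order of p with a promoter in the set used, which held none for Cldn13 or Slc4a1. Each runs from 250 bases before to 50 bases after the annotated start, 5′ to 3′ on the gene's own strand, and comes from RefSeq (GRCm38.p6). They lie at chr6:29693964-29694263 on the plus strand for Tspan33, chr6:41704276-41704575 on the minus strand for Kel, chr12:76710498-76710797 on the minus strand for Sptb and chrX:150547167-150547466 on the plus strand for Alas2. Capitals mark any of the GATA letters AGATAA or AGATAG and TGATAA or TGATAG on either strand.
Tspan33: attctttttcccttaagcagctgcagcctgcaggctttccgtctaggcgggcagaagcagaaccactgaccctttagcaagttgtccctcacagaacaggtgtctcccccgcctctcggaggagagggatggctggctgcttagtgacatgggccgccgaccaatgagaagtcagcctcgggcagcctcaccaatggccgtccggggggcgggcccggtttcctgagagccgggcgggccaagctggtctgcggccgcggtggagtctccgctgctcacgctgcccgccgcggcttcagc
Kel: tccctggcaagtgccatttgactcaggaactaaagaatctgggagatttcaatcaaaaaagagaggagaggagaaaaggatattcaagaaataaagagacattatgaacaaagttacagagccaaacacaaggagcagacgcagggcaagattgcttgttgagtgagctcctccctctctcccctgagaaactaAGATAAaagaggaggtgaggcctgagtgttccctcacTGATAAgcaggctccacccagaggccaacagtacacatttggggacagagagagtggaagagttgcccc
Sptb: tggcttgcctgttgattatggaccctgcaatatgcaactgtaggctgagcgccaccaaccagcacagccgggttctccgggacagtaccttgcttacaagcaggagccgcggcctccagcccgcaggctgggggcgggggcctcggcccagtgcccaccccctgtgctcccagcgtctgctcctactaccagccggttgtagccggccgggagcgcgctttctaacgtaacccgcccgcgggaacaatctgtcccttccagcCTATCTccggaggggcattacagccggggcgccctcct
Alas2: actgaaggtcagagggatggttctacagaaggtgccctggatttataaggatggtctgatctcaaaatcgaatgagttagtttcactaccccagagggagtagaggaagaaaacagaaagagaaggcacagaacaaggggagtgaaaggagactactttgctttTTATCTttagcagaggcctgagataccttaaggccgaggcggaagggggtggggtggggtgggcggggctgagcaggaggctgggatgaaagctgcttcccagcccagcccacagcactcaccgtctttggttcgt
Kel held 2 matches, Sptb and Alas2 held 1 each, and Tspan33 held 0. Of 32851 promoters of the same length, 29.8% held at least 1 match, and of the 31 promoters found for 25 genes of the erythroid list, 17 did (54.8%). A match is a run of letters and not a measured site.

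**Figure D4:**
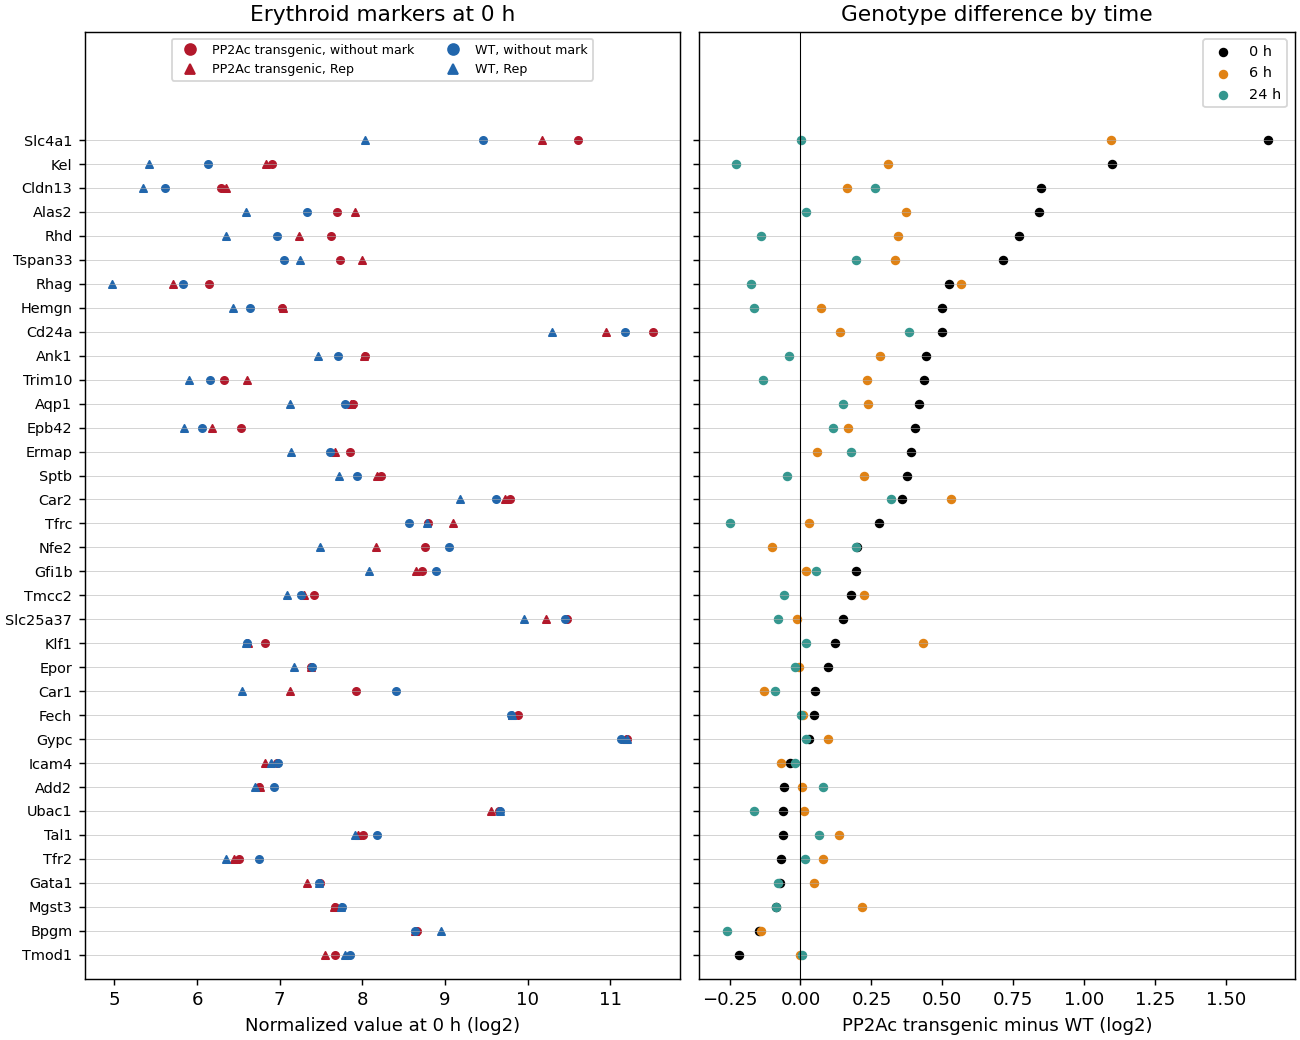
Left, normalised log2 value of the 35 erythroid markers in each array at 0 h (red transgenic, blue WT, circles without the mark, triangles marked Rep); right, the difference, transgenic minus WT, at 0 h, 6 h and 24 h. Slc4a1 differs by 1.65 at 0 h, 1.09 at 6 h and 0.00 at 24 h, and the lower rows, with Gata1 and Tal1, lie near 0 at 0 h.

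The erythroid differences were smaller after stimulation. The list median was 0.20 at 0 h, 0.14 at 6 h and 0.00 at 24 h. Kel differed by 1.10 at 0 h, 0.31 at 6 h and -0.23 at 24 h. The change in the Kel difference between 0 h and 24 h was -1.33 ± 0.29 and was not called (limma adjusted p = 1). Cldn13 differed by 0.16 ± 0.11 at 6 h and 0.26 ± 0.11 at 24 h. The members were picked with their values at 0 h known, so a smaller difference at another time is a description.

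Most dendritic cell markers read slightly higher in transgenic cells in both marks. Of 27 measured markers 24 were positive (43.0% of all genes were) and 17 had both transgenic arrays above both WT arrays (63.0%, against 12.2% of all genes). The list median was 0.31, with 0.27 within the unmarked arrays and 0.30 within those marked Rep, and it ran from 0.21 to 0.38 when 1 array at 0 h was left out. No member passed the threshold, and 5 had an unadjusted p under 0.05 on the higher side (1.42% of all genes did). The mean level of the list was 9.23 and 9.33 in transgenic cells, against 8.91 and 8.997 in WT cells, without overlap. Itgax, the integrin CD11c, read 8.92 and 8.77 in transgenic cells, against 8.44 and 8.14 in WT cells (0.55 ± 0.13). Siglech, a lectin of plasmacytoid dendritic cells, read 7.69 and 8.10 in transgenic cells, against 6.85 and 7.47 in WT cells (0.73 ± 0.26). Irf8, a transcription factor of dendritic cells and B cells, read 10.97 and 11.26 in transgenic cells, against 10.70 and 10.70 in WT cells (0.41 ± 0.14). Flt3, the growth factor receptor of the lineage, differed by 0.40 ± 0.16, and the class II antigen genes H2-Ab1, H2-Aa and H2-Eb1 by 0.30 ± 0.15, 0.34 ± 0.18 and 0.31 ± 0.16. Zbtb46, a transcription factor of conventional dendritic cells, read 7.76 and 7.86 in transgenic cells, against 7.79 and 7.81 in WT cells (0.01 ± 0.10). Unlike the erythroid list, the dendritic list had a like median at the later times, with 0.24 at 6 h and 0.24 at 24 h. The difference between the lists in this respect was not tested.

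The median of genes of innate-like and gamma-delta T cells was also positive in both marks. Of 10 measured genes 9 were positive (43.0% of all genes were) and 6 separated the genotypes on the higher side (against 12.2% of all genes). Within both marks 6 of the 10 were higher (22.3% of all probe sets were) and 0 were lower. The median was 0.24, with 0.23 within the unmarked arrays and 0.28 within those marked Rep. Tmem176b, an ion channel gene expressed in dendritic cells and in RORgt-positive lymphocytes, read 10.42 and 10.29 in transgenic cells, against 9.71 and 9.52 in WT cells (0.74 ± 0.16). Its neighbour and relative Tmem176a read 8.81 and 8.78 in transgenic cells, against 8.18 and 8.38 in WT cells (0.52 ± 0.15). Cd163l1, a scavenger receptor of gamma-delta T cells, differed by 0.39 ± 0.12, and Cxcr6, a chemokine receptor of effector and innate-like T cells, by 0.32 ± 0.12. Zbtb16 and Sox13, transcription factor genes of innate-like and gamma-delta T cells, differed by 0.14 ± 0.33 and 0.06 ± 0.11. Il23r, the IL-23 receptor gene, read 6.42 and 6.63 in transgenic cells, against 6.08 and 6.08 in WT cells (0.45 ± 0.16). Among 15 measured Th17 genes the median was 0.07 at 0 h, 0.37 at 6 h and 0.57 at 24 h. At 0 h it was -0.003 within the unmarked arrays and 0.08 within those marked Rep, and it ran from 0.0023 to 0.11 with 1 array left out. Il17a, the IL-17A gene, read 6.57 and 6.62 in transgenic cells, against 6.74 and 6.91 in WT cells (-0.23 ± 0.13). Before stimulation Il17a was therefore not above WT in either mark, while its difference was 0.89 at 6 h and 0.85 at 24 h. The change of the Il17a difference was 1.11 ± 0.18 to 6 h and 1.08 ± 0.18 to 24 h, neither of them called (limma adjusted p = 1 for both).

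Natural killer and plasma cell markers also leaned to the transgenic side. Of 22 NK and cytotoxic markers 19 were positive (43.0% of all genes were) and 9 separated the genotypes on the higher side (40.9%, against 12.2% of all genes). Their median was 0.22 (0.32 within the unmarked arrays, 0.09 within those marked Rep). Il2rb, the IL-2 receptor beta chain, read 12.28 and 12.31 in transgenic cells, against 12.02 and 11.99 in WT cells (0.29 ± 0.08). Klrk1, the activating receptor NKG2D, read 8.94 and 9.16 in transgenic cells, against 7.96 and 8.76 in WT cells (0.69 ± 0.28), and it differed by 0.29 without the unmarked WT array and 1.09 without the one marked Rep. Without the unmarked WT array the NK median was 0.09. Of 13 plasma cell markers 11 were positive and 7 separated the genotypes on the higher side (53.8%). Their median of 0.21 was 0.07 without the unmarked transgenic array. Igha, the IgA heavy chain, read 13.27 and 12.92 in transgenic cells, against 12.82 and 12.21 in WT cells (0.58 ± 0.31). Jchain, the joining chain of IgA and IgM, differed by 0.36 ± 0.26. Among B cell markers 17 of 22 were positive (median 0.11) and 4 separated on the higher side (18.2%). Ms4a1, the gene of CD20, differed by 0.26 ± 0.29. The part that these other cells have in the differences of single genes above was not tested.

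Myeloid lists differed in the arrays marked Rep and not in the unmarked ones. The neutrophil median was 0.88 with 26 of 28 positive (43.0% of all genes were). It was -0.11 within the unmarked arrays, 2.04 within those marked Rep and -0.54 without the WT array marked Rep. Separation on the higher side was met by 1 of the 28 (3.57%, against 12.2% of all genes). The monocyte and macrophage median was 0.58, and it was -0.03 within the unmarked arrays, 1.06 within those marked Rep and -0.11 without the WT array marked Rep. Mast cell and basophil markers had a median of 0.36, which was -0.05 within the unmarked arrays, 0.57 within those marked Rep and -0.24 without the same WT array. Kit, the stem cell factor receptor of mast cells and progenitors, was an exception in that list, at 9.70 and 9.76 in transgenic cells, against 9.37 and 9.19 in WT cells (0.45 ± 0.15). Platelet markers had a median of -0.05, CD8 T cell markers 0.09 and stromal and endothelial markers 0.01.

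**Figure D5:**
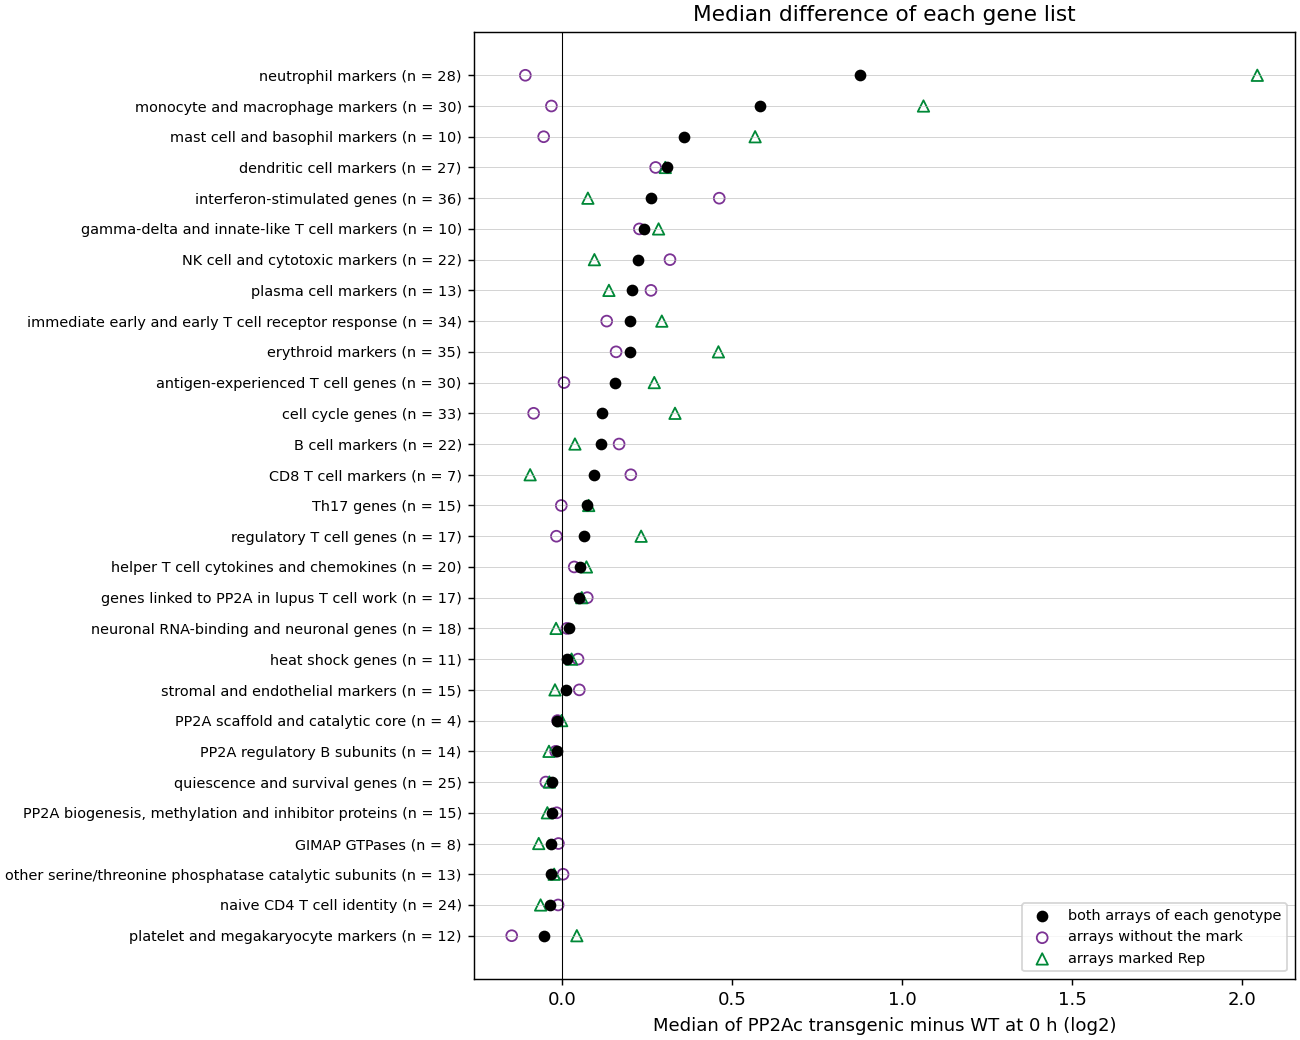
Median log2 difference, transgenic minus WT at 0 h, of each gene list with its number of measured genes; filled circles use both arrays of each genotype, open circles the arrays without the mark and open triangles those marked Rep. The 3 symbols coincide for dendritic cell and gamma-delta markers and lie far apart for neutrophil, monocyte and mast cell markers.

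Interferon-stimulated genes stood higher in the unmarked arrays. Of 36 measured genes 30 were positive (43.0% of all genes were), with a median of 0.26. Both transgenic arrays lay above both WT arrays for 12 (33.3%, against 12.2% of all genes). The list median was 0.46 within the unmarked arrays and 0.08 within those marked Rep, and it was 0.10 without the unmarked transgenic array. No member passed, and 0 had an unadjusted p under 0.05 in limma (3.62% of all genes did). Ifit1, an interferon-induced antiviral effector gene, read 11.27 and 10.04 in transgenic cells, against 10.12 and 9.43 in WT cells (0.88 ± 0.58). Rsad2, the antiviral enzyme viperin, read 10.57 and 8.89 in transgenic cells, against 9.26 and 7.51 in WT cells (1.34 ± 1.07). In both genes the unmarked array was higher than the Rep array of the same genotype, and the genotypes overlapped. Xaf1 (0.33 ± 0.20) and Rtp4 (0.74 ± 0.42), both induced by interferon, did not overlap. The list median was 0.47 at 6 h and 0.63 at 24 h.

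Most immediate early genes of T cell receptor signalling had small positive differences in cells that had received no antibody. Of 34 genes 28 were positive (43.0% of all genes were) and 12 separated the genotypes on the higher side (35.3%, against 12.2% of all genes), with a median of 0.20 (0.13 within the unmarked arrays, 0.29 within those marked Rep). No member passed, and 1 of the 34, Fos, had an unadjusted p under 0.05. That rule was met by 3.62% of all genes, so by it the list did not exceed the background. On the higher side alone, where Fos lay, 1.42% of all genes met it. Separation on the higher side was not particular to this list or to the interferon list. It was also met by 5 of 11 heat shock genes (45.5%) and 5 of 13 other phosphatase catalytic subunits (38.5%), lists with medians of 0.01 and -0.03. Fos, a subunit of AP-1, read 9.24 and 9.33 in transgenic cells, against 8.78 and 8.78 in WT cells (0.50 ± 0.21). Egr1 and Egr2, early transcription factors downstream of ERK and calcium signals, differed by 0.34 ± 0.17 each, without overlap. Irf4, which scales with receptor signal strength, read 11.29 and 11.24 in transgenic cells, against 10.99 and 10.76 in WT cells (0.39 ± 0.18). Nr4a1, another reporter of receptor signals, differed by 0.26 ± 0.16 with overlap, and Cd69, an early surface marker, by 0.24 ± 0.31. The median was 0.12 without the WT array marked Rep and 0.12 without the transgenic array marked Rep. At the later times, when both genotypes had been stimulated, it was -0.02 at 6 h and -0.03 at 24 h. The same genes are expressed by other blood cells, and the myeloid and dendritic medians above differ between the same arrays. Whether such cells have a part in the immediate early differences was not tested.

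Genes of the naive T cell itself differed little. Of 24 measured identity genes 0 passed, 7 were positive (43.0% of all genes were), 0 separated the genotypes on the higher side (12.2% of all genes) and 5 on the lower side (20.8%, against 20.7% of all genes), with differences from -0.36 in Dapl1 to 0.05 in Ccr7 and a median of -0.04. Cd3d, a chain of the receptor complex, read 11.73 and 11.71 in transgenic cells, against 11.95 and 11.91 in WT cells (-0.21 ± 0.10), and Cd28, the costimulatory receptor, differed by -0.05 ± 0.08. Quiescence and survival genes had a median of -0.03 (25 genes), GIMAP GTPases -0.03 (8 genes) and heat shock genes 0.01 (11 genes). The 20 genes of helper cytokines and chemokines had 0.05, and Ifng, the interferon gamma gene, differed by 0.34 ± 0.42. The median of 30 genes of antigen-experienced T cells was 0.15, but -0.02 without the WT array marked Rep. Cell cycle genes had a median of 0.12, with -0.08 within the unmarked arrays and 0.33 within those marked Rep. Regulatory T cell genes had a median of 0.06, which was -0.02 within the unmarked arrays, 0.23 within those marked Rep, -0.18 without the WT array marked Rep and 0.44 without the unmarked WT array. Socs2, a suppressor of cytokine signalling in that list, read 9.33 and 9.53 in transgenic cells, against 8.33 and 8.84 in WT cells (0.85 ± 0.29). It was the 1 member of 17 that separated the genotypes on the higher side (5.88%, against 12.2% of all genes), and 12 of the 17 were positive. Foxp3, Ikzf2 and Izumo1r of the same list differed by 0.06 ± 0.36, 0.14 ± 0.24 and -0.20 ± 0.20, all with overlap. Genes that earlier work linked to PP2A in lupus T cells had a median of 0.05 over 17 genes, with 0 past the threshold. Il2, a cytokine gene of that list, read 5.51 and 5.51 in transgenic cells, against 5.35 and 5.90 in WT cells (-0.12 ± 0.55).

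Nnt and Wdfy1, genes known to vary between C57BL/6 substrains, also separated the genotypes. Nnt, the mitochondrial transhydrogenase, read 10.28 and 10.26 in transgenic cells, against 9.89 and 9.96 in WT cells (0.35 ± 0.07, limma adjusted p = 1). Wdfy1, an endosomal adaptor gene, read 8.90 and 8.88 in transgenic cells, against 8.42 and 8.60 in WT cells (0.38 ± 0.09, limma adjusted p = 1). The Nnt difference was 0.48 at 6 h and 0.47 at 24 h, and the Wdfy1 difference 0.57 and 0.50.

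The genotype differences at 0 h were compared with those at 6 h and 24 h, which use other arrays. Arrays that share a mark also share variation across times, so these are not fully independent. The sign at 0 h recurred for 61.3% of probe sets at 6 h and for 56.3% at 24 h. Of the 12 probe sets with the largest positive differences, which stand for 11 genes because Nova1 has 2, 12 were above 0 at both later times, against 46.7% of the 1280 probe sets that met the same criteria. At 24 h, however, Slc4a1 differed by 0.0014 ± 0.39 and Cd36 by 0.02 ± 0.64, which are within their errors of 0. Of the 12 largest negative ones, 11 were negative at 6 h and 8 at 24 h, against 74.5% and 63.9% of 2870. Mid1 differed by -0.95 ± 0.11 at 6 h and -0.74 ± 0.11 at 24 h. Fbxw10 differed by -0.49 at 0 h, 0.00 at 6 h and 0.07 at 24 h. A test of whether the genotype difference itself had altered called 0 probe sets between 0 h and 6 h (0.0%) and 0 between 0 h and 24 h (0.0%) in limma, with 420 (1.79%) and 625 (2.67%) at an unadjusted p under 0.05. Nova1 10400155 differed by 3.94 at 6 h and 4.31 at 24 h, a change from 0 h of -1.87 (limma adjusted p = 0.58) and -1.50 (limma adjusted p = 1). Ppp2ca differed by 0.38 at 6 h and 0.60 at 24 h, a change from 0 h of -0.35 and -0.13 (limma adjusted p = 1 for both).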

How the data were processed

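Total RNA was extracted with TRIZOL and column purification and cDNA was labelled with biotin, per the labels' protocols. The authors deposited log2 values for 28853 probe sets on 12 arrays; the sources used here do not give how arrays were summarised or normalised. Array medians ran from 7.39 to 7.50 as deposited, and values were quantile normalised between arrays. Symbols came from the array annotation, updated through Entrez numbers with a RefSeq gene table (91 not found); 21789 probe sets had 1 symbol, 1621 several and 5443 none. limma 3.58.1 in R 4.3.3 was fitted to 6 group means (6 residual and 3.05 prior degrees of freedom), with adjustment over 23410 probe sets; tables and plots were made in Python 3.11.15 (matplotlib 3.10.9 for plots, numpy 2.4.6, pandas 2.3.3 for tables), and the procedure was tested on simulated data. No replicate pair held identical arrays: 0.0104% of values were equal in each 0 h pair.

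Genes named are probe sets past the threshold, alone or with the block; the 12 largest differences in each direction among single-gene probe sets that did not overlap, had 1 sign within both marks and lay above the 40th percentile, leaving out predicted genes, receptors of smell, microRNA and small RNA genes; PP2A core, Nova, Nnt and Wdfy1 genes; the 4 smallest p within a list; and neighbours of Nova1 and Ppp2ca. Other members of the lists were named for their roles after their values were seen. The members, the 29 lists (627 entries) and the rules were chosen with earlier results of these data known. Lists use 1 probe set per gene.

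Deviations of same-marked arrays from their group means correlated in 15 of 15 pairs of groups (0.138 to 0.591, and 0.447 between the 0 h groups), so the mark pairs samples and a fit with it as a block was an alternative. The others were deposited values, median centring, leaving out the dimmest 40%, all rows, array weights, a trended and robust variance prior, 1 probe set per gene, the 4 arrays at 0 h, counting only differences of at least 1 on the log2 scale and leaving out each array.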

Additional observations from a re-analysis of the deposited data

How the results depend on the processing

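The count of 2 called probe sets at 0 h, both Nova1, became 4 with the replicate block, which added Ppp2ca and Tspan33, and 1 with 1 probe set per gene, which keeps a single Nova1 probe set; it was 2 or 3 under the other alternatives, 2 when only differences of at least 1 were counted, and 2 whichever array was left out. Ppp2ca (0.74, limma adjusted p = 0.055) passed as deposited (0.72, adjusted p = 0.043), without the dimmest 40% (adjusted p = 0.040), with trended and robust moderation (0.0019), with array weights (0.029) and with the replicate block (0.035). It did not pass with median centring (0.18), all rows (0.074), 1 probe set per gene (0.079), the 4 arrays at 0 h only (0.97) or with any array left out (0.72 to 0.75, adjusted p = 0.11 to 0.82). The replicate block changed no other call at 0 h. The count of altered genotype differences between 0 h and 6 h was 0 and ran from 0 to 1 with an array left out, where Il1a, an interleukin gene named after its value was seen, passed without the unmarked WT array at 6 h; between 0 h and 24 h it was 0 throughout. For 146 single probe sets other than that of Ppp2ca, 40 of 3042 recomputed values changed sign, none of a called gene, and 1 gained a call (Tspan33 with the block). Of 609 recomputed list medians 21 changed sign. The median over all probe sets moved from -0.02 to -0.03 with deposited values. Arrays give no depth, so the limit is the number of arrays and dim readings such as Nova1 in WT cells.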

Other observations

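C1qa, a subunit of complement C1q, read 6.06 and 5.98 in transgenic cells, against 6.50 and 6.41 in WT cells (-0.44 ± 0.17), with -0.44 within the unmarked arrays and -0.43 within those marked Rep. C1qb, another C1q subunit, differed by -0.07 ± 0.53, with -0.56 within the unmarked arrays and 0.43 within those marked Rep, and C1qc by -0.22 ± 0.31. Among heavy chain constant regions, Ighg3 differed by 2.52 ± 0.68, Igha by 0.58 ± 0.31 and 0.74 ± 0.35 in 2 probe sets of its own and by 1.42 ± 0.56 in 1 shared with Ighv3-6, and 3 Ighm probe sets by 0.42 ± 0.32, 0.21 ± 0.18 and 0.44 ± 0.59. Whether these differences differ from each other was not tested, and the probe sets of immunoglobulin genes may read near-identical copies. Among kappa variable segments the differences ran from -0.70 ± 0.30 in Igkv4-55 to 0.47 ± 0.23 in Igkv6-20. The next lowest was Igkv8-30 (-0.11 ± 0.30), and most of the others were above 0.

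Tmem267, the second in order among the largest negative differences, lies close to Nnt on chromosome 13 (chr13:119488086-119610459, and chr13:119335527-119409257 for Nnt, GRCm38.p6). Nnt differed by 0.35 ± 0.07 and Tmem267 by -0.72 ± 0.33, while Paip1, a translation factor gene between them, read 10.47 and 10.57 in transgenic cells, against 10.44 and 10.60 in WT cells (0.00 ± 0.11). Tmem267 differed by -0.57 at 6 h and -0.93 at 24 h. Genes in these paragraphs were chosen after their values were seen, and none passed the threshold.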
